A study of Mus musculus with 6 samples.

Results

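The genes described here are 36 mouse genes of the endoplasmic reticulum (ER): its chaperones and folding enzymes, the sensors of the unfolded protein response (UPR), the factors of ER-associated degradation (ERAD) and the channel through which proteins enter. They were chosen by gene symbol, and all 36 were found among the 55446 genes of the authors' deposited table and among the 15762 genes that the authors tested. By role they were divided into 15 chaperones and folding enzymes, 7 sensors and transcription factors, 11 ERAD genes and 3 translocation genes.

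RNA was sequenced from crypts of the ileum in 6 libraries. Of these, 3 came from Adar iΔgut mice (genotype label Adar1 KO), which carried floxed Adar alleles and the VilCreERt2 transgene. The other 3 came from Adarfl/fl mice without the transgene, labelled WT. Tamoxifen was given to mice of both genotypes over 3 days, and the crypts were not cultured. The villin promoter directs the tamoxifen-activated recombinase CreERt2 to the intestinal epithelium, so cells of other kinds in the crypt preparation keep their Adar alleles. The age of the mice is not stated in the labels.

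The deposited table held 1 pooled FPKM value, a fragment count corrected for transcript length and sequencing depth, for each gene in a condition named TMX and 1 in a condition named con. No spread between libraries stands beside a value, and the depth of each library is unknown. A change was called where the q-value of the authors' own test was under 0.05. Both genotypes received tamoxifen, so TMX was read as Adar iΔgut and con as Adarfl/fl by elimination, and no label states this. Adar itself, the targeted gene, was at 52.0 FPKM in TMX and 19.5 FPKM in con (q = 0.0575) in the authors' deposited table, against that reading. A value for the whole gene also counts exons that remain after deletion, so it checks neither the deletion nor the labels, and directions are stated for TMX as the table names it.

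Proteins that enter the secretory pathway fold in the ER with the help of chaperones and of enzymes that form disulfide bonds, and molecules that fail to fold are returned to the cytosol and degraded, the process called ERAD. When unfolded proteins accumulate, the membrane sensors IRE1, PERK and ATF6 start the UPR, in which the transcription factors XBP1 and ATF6 raise chaperone and ERAD genes and PERK slows protein synthesis. In the ileal crypt, the demand is highest in Paneth and goblet cells, which secrete antimicrobial proteins and mucus. IRE1 acts by splicing Xbp1 mRNA, ATF6 by its own cleavage and PERK by phosphorylation, and none of these steps is read by a gene-level FPKM.

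None of the 36 genes was called in either direction by the authors' test, in a table of Cufflinks layout, while 12.3% of all tested genes were called, 6.6% as higher and 5.7% as lower in TMX. At an unadjusted p-value under 0.05, no member was higher and 3 were lower in the authors' deposited table, beside 12.1% higher, 10.7% lower and 22.8% in either direction among all tested genes. No member was called either at a q-value under 0.01 (7.35% of tested genes called) or after adjusting the p-values over genes with a mean of 1 FPKM or more (12.7%), protein-coding genes (15.3%) or all listed genes (2.32%). The log2 fold change of the members, taken as TMX plus 1 over con plus 1, lay between -0.87 and 0.49 in the authors' deposited table. Thus no member differed by as much as 2-fold on that scale, on which 2720 of the 15762 tested genes did. By the authors' deposited table, 12 members lay above 0 and 24 below it on this scale, against 53.5% of all tested genes above 0 and 46.5% below. The median was -0.22 over the members and 0.05 over all tested genes. When the conditions were scaled to the same total FPKM, the median of all tested genes shifted by 0.17 to 0.23, the members' median was -0.01 and 18 members lay on each side of 0. That scaling moves all genes alike, and centring on the median of all tested genes instead left 10 members above 0. The members' median minus that of all tested genes was -0.27 as deposited and -0.23 after scaling to the same total. In bulk RNA, fewer cells of a type and less RNA per cell cannot be told apart. Edem2, an ERAD gene, had the lowest and Creld2, grouped with the chaperones, the highest log2 fold change.

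**Figure D1:**
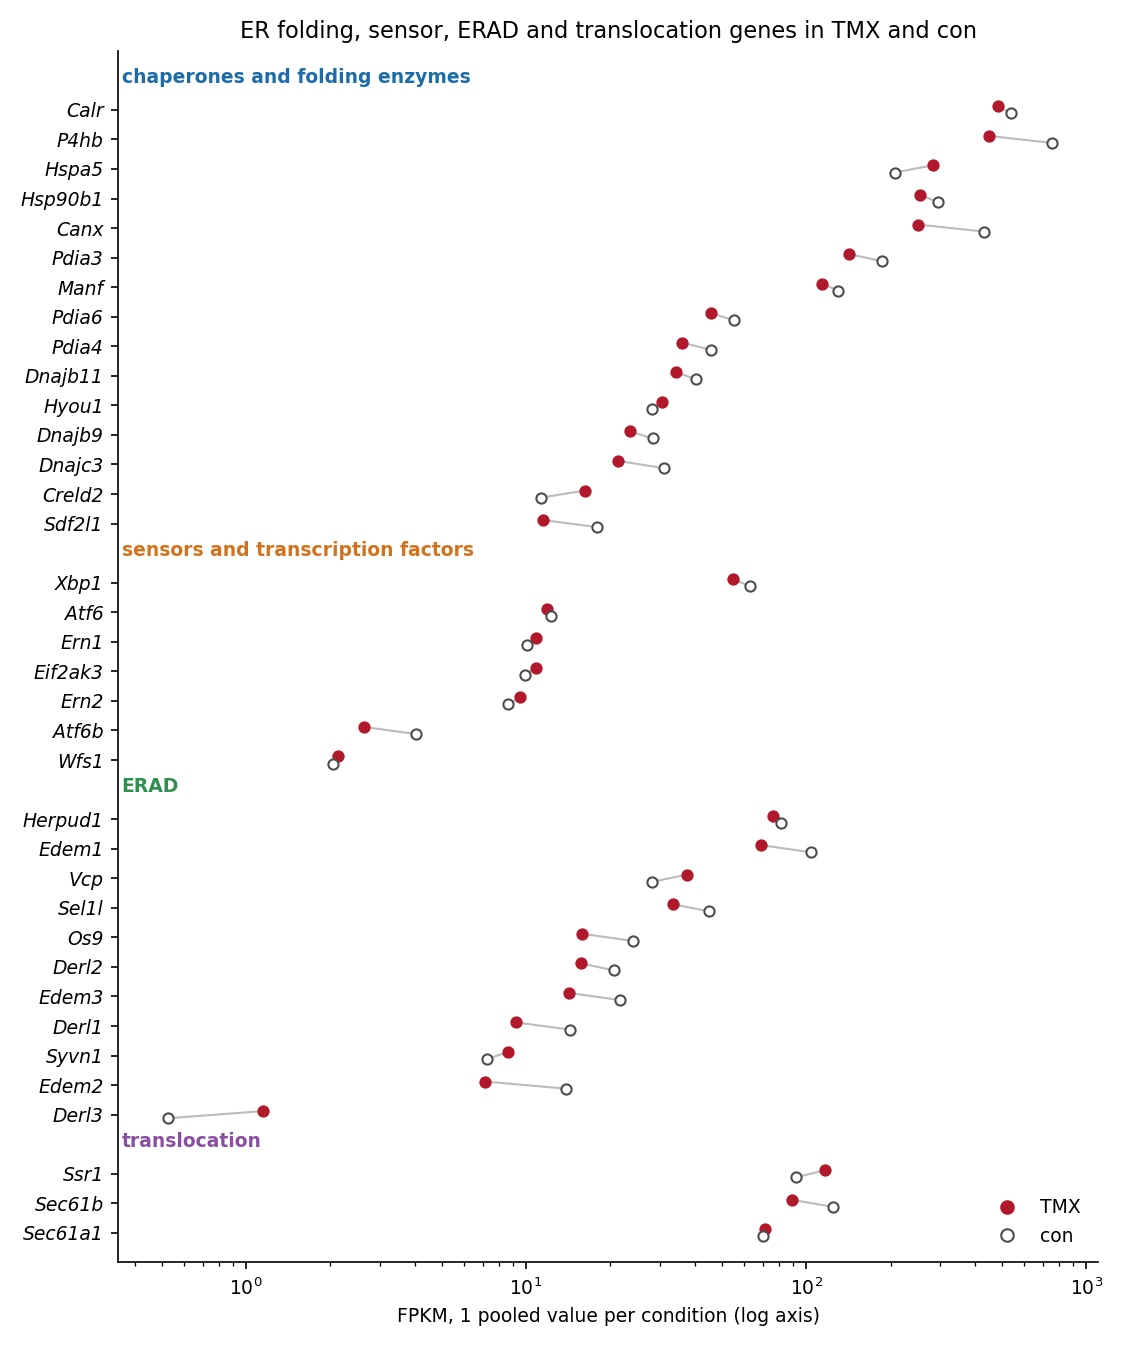
FPKM of the 36 genes in TMX (filled red) and con (open grey), 1 pooled value per condition with no error, on a log axis, grouped by role and ordered by the TMX level. The levels run from Derl3, at 1.15 FPKM in TMX and 0.529 FPKM in con and the pair farthest apart, to Calr at 484 FPKM in TMX and 539 FPKM in con and P4hb at 450 FPKM in TMX and 753 FPKM in con.

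The absence of calls has to be read against the size of change that the authors' test called at these levels. Among the 13959 tested genes whose mean FPKM lay within the members' range, 12.5% were called, and 60.9% of those with an absolute log2 fold change of at least 1 were called, but 1.70% of those with a smaller one. Under a mean of 10 FPKM, where 5 members lay, the smallest absolute log2 fold change called was 0.42. Between a mean of 10 and 100 FPKM, where 22 members lay, it was 0.77. At a mean of 100 FPKM or more, where 9 members lay, it was 0.87. Edem2, at a log2 fold change of -0.87, and Atf6b and Derl3, at -0.47 and 0.49, lay beyond the smallest change called at their level and were not called themselves, and the other members lay within it. A missed call does not show that a gene was unchanged. In the members' range of expression, 22.7% of the tested genes had an absolute log2 fold change larger than 0.87, the largest among the members.

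**Figure D2:**
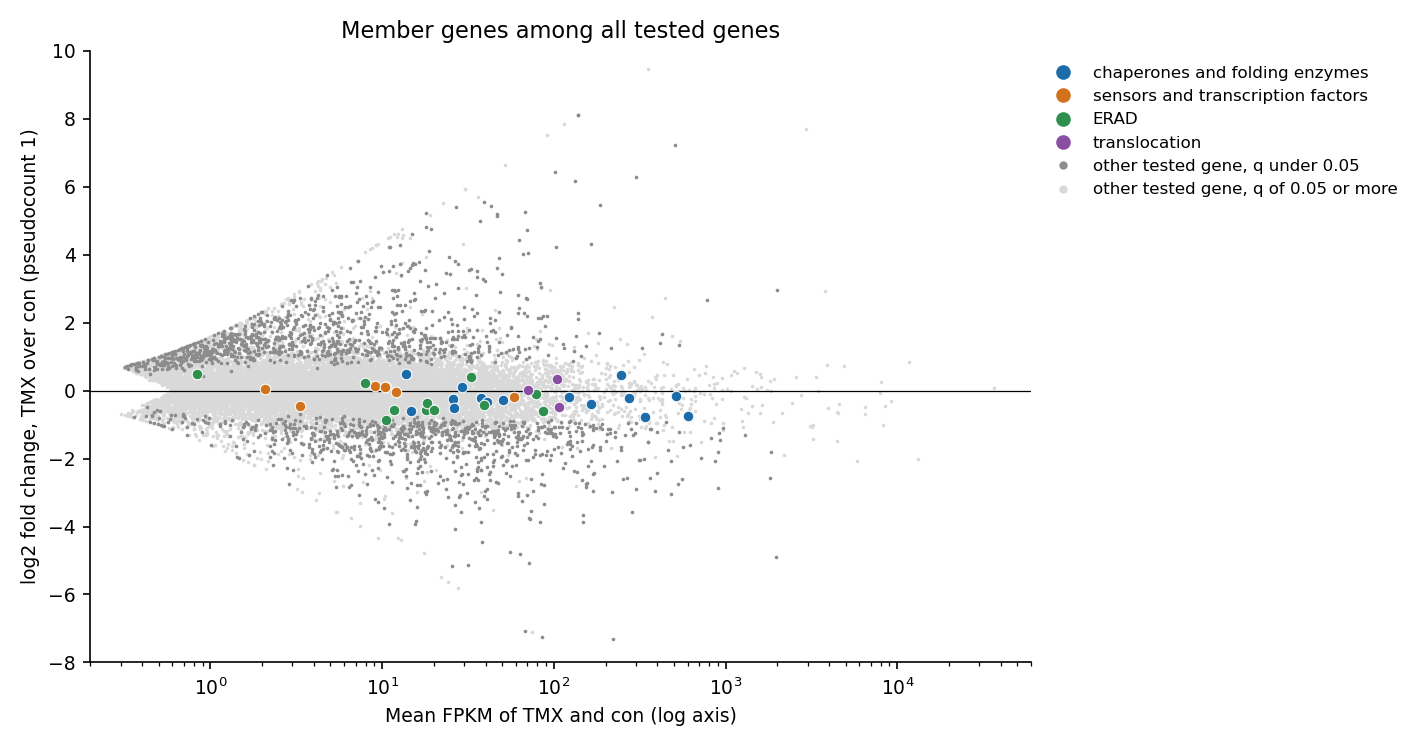
Log2 fold change of TMX over con (pseudocount 1) against the mean FPKM of both conditions (log axis) for all 15762 tested genes, with the 36 members coloured by role. Called genes are dark grey and all others light grey. The members lie between -0.87 and 0.49, and none is a called gene.

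Among the chaperones, Hspa5 encodes BiP, the ER member of the HSP70 family, which also holds the UPR sensors inactive. Hspa5 (chr2:34771970-34777547, plus strand, GRCm38) was at 283 FPKM in TMX and 207 FPKM in con in the authors' deposited table, a log2 fold change of 0.45 (q = 0.550). Its value was the higher in TMX, as in 3 of the 15 genes of the class. Hsp90b1, the ER member of the HSP90 family, was at 255 FPKM in TMX and 294 FPKM in con (q = 0.872) in the authors' deposited table. Hyou1, a large HSP70-like protein that acts as an exchange factor for BiP, was at 30.5 FPKM in TMX and 28.2 FPKM in con (q = 0.925) in the authors' deposited table. The log2 fold change of Hsp90b1 was thus below 0 and those of Hspa5 and Hyou1 above it, and scaling to the same total, which put the median of all tested genes at 0.23, put Hsp90b1 at 0.010.

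The 3 J-domain co-chaperones of BiP among the members had lower values in TMX without a call, also when the conditions were scaled to the same total. Other ER J-domain genes had higher values in TMX without a call, with Dnajc1 at 26.4 FPKM in TMX and 11.8 FPKM in con (q = 0.241) and Dnajc10 at 33.0 FPKM in TMX and 31.5 FPKM in con (q = 0.962) in the authors' deposited table. Dnajc3, or p58IPK, which also inhibits PERK, was at 21.3 FPKM in TMX and 30.9 FPKM in con, a log2 fold change of -0.52 (q = 0.293) in the authors' deposited table. Dnajb9, which restrains IRE1 by recruiting BiP to it, was at 23.5 FPKM in TMX and 28.3 FPKM in con (q = 0.703) in the authors' deposited table. Dnajb11 was at 34.4 FPKM in TMX and 40.5 FPKM in con (q = 0.765) in the authors' deposited table. Sdf2l1, which works with Dnajb11 in a complex around BiP, was at 11.5 FPKM in TMX and 17.9 FPKM in con, a log2 fold change of -0.60 (q = 0.257, the lowest q-value of the class) in the authors' deposited table.

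Creld2 and Manf encode small proteins that are induced by ER stress and can leave the cell. Creld2 (chr15:88819646-88826683, plus strand, GRCm38) was at 16.3 FPKM in TMX and 11.3 FPKM in con, a log2 fold change of 0.49 (q = 0.348) in the authors' deposited table. Manf was at 114 FPKM in TMX and 130.3 FPKM in con (q = 0.904) in the authors' deposited table. The table's locus for Manf spans 410036 bases and overlaps 3 further protein-coding genes, so its value is less certain than that of Creld2, whose locus is the annotated gene.

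The 4 protein disulfide isomerases among the members, which form and rearrange disulfide bonds, had lower values in TMX and no call, also when the conditions were scaled to the same total. Family genes outside the members lay on both sides of 0 without a call, with Erp44 at 33.7 FPKM in TMX and 52.5 FPKM in con (q = 0.222) and Tmx3 at 29.8 FPKM in TMX and 25.3 FPKM in con (q = 0.837) in the authors' deposited table. P4hb, the archetype of the family, was at 450 FPKM in TMX and 753 FPKM in con, a log2 fold change of -0.74 (q = 0.593) in the authors' deposited table. It had the highest level of all 36 members in con and ranked behind Calr in TMX. Pdia3, which works with calreticulin and calnexin, was at 142 FPKM in TMX and 187 FPKM in con (q = 0.606), and Pdia4 at 36.1 FPKM in TMX and 45.8 FPKM in con (q = 0.597), in the authors' deposited table. Pdia6, which also modulates IRE1, was at 45.7 FPKM in TMX and 55.2 FPKM in con (q = 0.732) in the authors' deposited table.

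Of the lectin chaperones that hold glycoproteins during folding, the soluble calreticulin and the membrane-bound calnexin stood apart in size of difference but not in call. Calr was at 484 FPKM in TMX and 539 FPKM in con, a log2 fold change of -0.16 (q = 0.930) in the authors' deposited table and of 0.059 after scaling to the same total, with all tested genes at a median of 0.23. Canx (chr11:50293961-50325673, minus strand, GRCm38) was at 250.001 FPKM in TMX and 432 FPKM in con, a log2 fold change of -0.79 (q = 0.501) in the authors' deposited table. The difference of Canx was the largest of the class, and no tested gene at a mean of 100 FPKM or more within the members' range was called with an absolute log2 fold change under 0.87.

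Summed over the class, the 15 chaperone and folding genes came to 2197 FPKM in TMX and 2801 FPKM in con in the authors' deposited table, a ratio of 0.784. Without P4hb the sums were 1747 FPKM in TMX and 2048 FPKM in con, a ratio of 0.853. All tested genes together had a ratio of 0.859, and tested protein-coding genes 0.772, or 0.795 without Reg3b, their most abundant gene. The median log2 fold change of the class was -0.25 in the authors' deposited table and -0.05 when the conditions were scaled to the same total.

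The best described shared sequence of UPR targets is the ER stress response element, ERSE, to which ATF6 and NF-Y bind. The promoter windows of RefSeq (GRCm38.p6, 250 bases before to 50 after the annotated start) were searched on both strands for ERSE (CCAAT, 9 bases of any kind, CCACG), for ERSE-II (ATTGG, 1 base of any kind, CCACG) and for the core of the XBP1-binding element, TGACGTGG. ERSE and ERSE-II share the letters CCACG, and the last of these motifs holds the reverse complement of CCACG, but no match of different motifs overlapped in a member's window. A window was found for 30 of the 36 members, all except Atf6, Derl1, Ern2, Hyou1, Manf and Sec61a1. The matches are shown on the gene's strand, 5′ to 3′, with 8 bases on each side, to let the shared letters be compared, and capitals mark the fixed letters of the motif.
Hspa5 ERSE, chr2:34772017-34772051, plus strand: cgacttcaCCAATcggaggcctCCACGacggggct
Canx ERSE, chr11:50325792-50325826, minus strand: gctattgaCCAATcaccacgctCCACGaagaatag
Dnajc3 ERSE, chr14:118937819-118937853, plus strand: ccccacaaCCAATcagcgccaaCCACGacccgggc
Pdia6 ERSE, chr12:17266483-17266517, plus strand: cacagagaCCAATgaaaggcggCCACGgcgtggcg
Syvn1 ERSE, chr19:6046524-6046558, plus strand: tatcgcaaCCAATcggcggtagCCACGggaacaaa
Calr ERSE on the opposite strand, chr8:84847067-84847101, minus strand: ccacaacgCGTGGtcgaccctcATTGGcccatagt
Creld2 ERSE on the opposite strand, chr15:88819512-88819546, plus strand: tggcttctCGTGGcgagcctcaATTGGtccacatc
Derl3 ERSE on the opposite strand, chr10:75893234-75893268, plus strand: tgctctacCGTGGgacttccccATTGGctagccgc
Hsp90b1, an ERSE on each strand, chr10:86705525-86705664, minus strand: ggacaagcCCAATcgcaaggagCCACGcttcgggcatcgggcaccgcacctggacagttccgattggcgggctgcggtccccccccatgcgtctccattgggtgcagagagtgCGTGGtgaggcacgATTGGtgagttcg
Herpud1 ERSE-II, chr8:94386369-94386395, plus strand: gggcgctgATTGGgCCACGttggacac
Dnajb11 ERSE-II, chr16:22857844-22857870, plus strand: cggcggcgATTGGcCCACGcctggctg
Vcp XBP1 element core, chr4:43000606-43000629, minus strand: cggccaatTGACGTGGcgttacta

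ERSE was found in 9 of the 30 member windows, which is 30.0%, against 39 of all 32851 windows, which is 0.119%. Among tested genes with a window, members included, 17 of 10317 held it, which is 0.165%. ERSE is known from UPR targets, so its share among these genes is a description and not a test. ERSE-II was found in 2 member windows and in 0.0365% of all windows, and the XBP1 element core in the window of Vcp and in 0.676% of all windows. The whole window of Hspa5 is given because BiP is the usual readout of the UPR, with its exact ERSE in capitals.
Hspa5 promoter, chr2:34771840-34772139, plus strand: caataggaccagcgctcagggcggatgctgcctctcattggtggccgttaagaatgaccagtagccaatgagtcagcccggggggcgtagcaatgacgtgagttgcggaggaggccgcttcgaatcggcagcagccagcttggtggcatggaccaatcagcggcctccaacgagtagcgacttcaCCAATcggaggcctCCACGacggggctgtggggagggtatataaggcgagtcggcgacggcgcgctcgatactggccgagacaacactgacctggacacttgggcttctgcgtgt

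The 9 members with an ERSE did not share a direction. Creld2, Derl3, Hspa5 and Syvn1 had log2 fold changes of 0.49, 0.49, 0.45 and 0.22 in the authors' deposited table. Canx, Dnajc3, Pdia6, Hsp90b1 and Calr had -0.79, -0.52, -0.27, -0.20 and -0.16 in the authors' deposited table. Their median was -0.16, and that of the 19 members whose window held neither ERSE nor ERSE-II was -0.40, with no member of either kind called. A match is only a match of letters, and binding was not measured here.

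**Figure D3:**
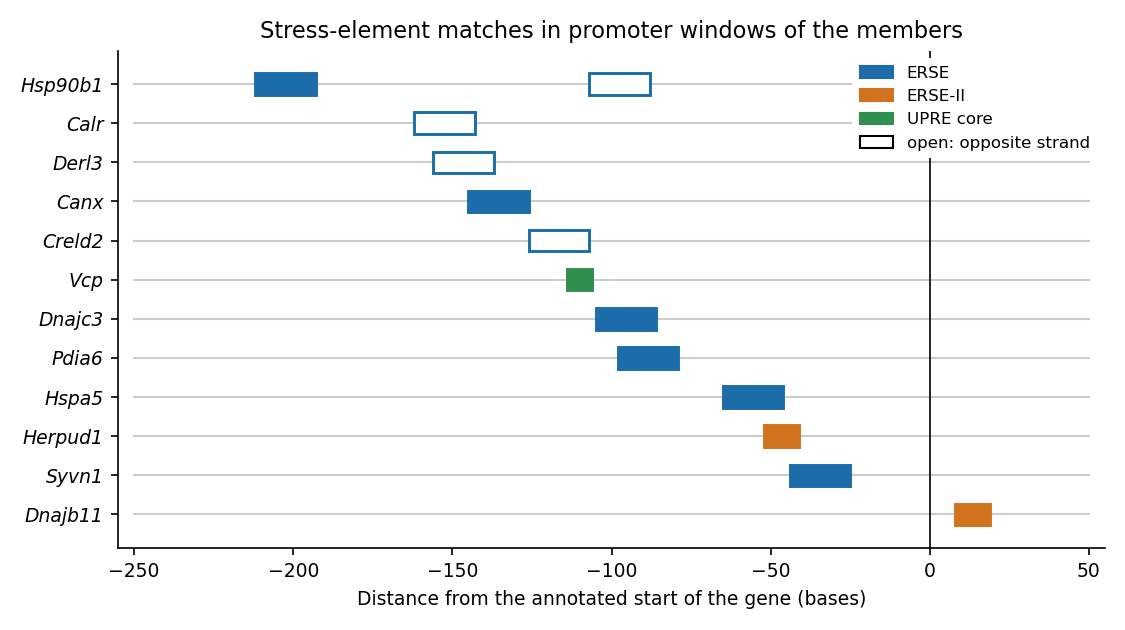
Positions of exact matches to ERSE (blue), ERSE-II (orange) and the XBP1 element core (UPRE core, green) in the promoter windows of 12 members, as the distance in bases from the RefSeq start, with open boxes for the opposite strand. All matches lie upstream of that start, between -212 and -26, except the ERSE-II of Dnajb11 at 8 to 18. The gene coordinates given above for Hspa5 start further upstream, so its match lies inside them.

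The genes of the sensors IRE1, PERK and ATF6 had similar levels in TMX and in con, and none was called. Ern1, which encodes the widely expressed IRE1α, was at 10.9 FPKM in TMX and 10.04 FPKM in con (q = 0.929) in the authors' deposited table. Ern2, which encodes its paralog IRE1β, was at 9.54 FPKM in TMX and 8.60 FPKM in con (q = 0.889) in the authors' deposited table. Eif2ak3, the PERK gene, was at 10.8 FPKM in TMX and 9.94 FPKM in con (q = 0.941) in the authors' deposited table. The IRE1 and PERK genes thus stood within a narrow band of levels, each with the higher value in TMX and with a q-value far above the threshold.

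Atf6 was at 11.9 FPKM in TMX and 12.3 FPKM in con (q = 0.973) in the authors' deposited table. Its paralog Atf6b, a weaker activator, was at 2.64 FPKM in TMX and 4.03 FPKM in con, a log2 fold change of -0.47 (q = 0.378), the lowest q-value of the sensors in the authors' deposited table. Xbp1 (chr11:5520659-5525893, plus strand, GRCm38), the transcription factor gene whose mRNA IRE1 splices, was at 54.98 FPKM in TMX and 62.9 FPKM in con (q = 0.861) in the authors' deposited table. Wfs1, an ER membrane protein that restrains ATF6, was at 2.13 FPKM in TMX and 2.05 FPKM in con (q = 0.977) in the authors' deposited table. The class had a median log2 fold change of 0.04 by the authors' deposited table, with 4 of 7 genes above 0, and the median was -0.02 after centring on all tested genes.

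The ERAD genes held the 3 of 36 members with an unadjusted p-value under 0.05, all with lower values in TMX. Of all tested genes, 10.7% were lower at that threshold and 22.8% passed it in either direction. Edem2 (chr2:155701677-155729475, minus strand, GRCm38) encodes a factor of the mannose trimming that marks misfolded glycoproteins for disposal. Edem2 was at 7.15 FPKM in TMX and 13.9 FPKM in con, a log2 fold change of -0.87 (p = 0.0112, q = 0.0780) in the authors' deposited table. It had the lowest q-value of all 36 members and would be called at a q-value under 0.1, a threshold at which 15.8% of all tested genes were called, 7.43% as lower. Edem3 (chr1:151755371-151822051, plus strand, GRCm38), of the same family, was at 14.2 FPKM in TMX and 21.6 FPKM in con, a log2 fold change of -0.57 (p = 0.0466, q = 0.209) in the authors' deposited table. Edem1 was at 69.0 FPKM in TMX and 104 FPKM in con, a log2 fold change of -0.59 (q = 0.628) in the authors' deposited table. All 3 members of the family had lower values in TMX, also when the conditions were scaled to the same total, and the test called none of them.

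Derl1 (chr15:57869502-57892448, minus strand, GRCm38) encodes a membrane protein of the channel through which substrates leave the ER. Derl1 was at 9.24 FPKM in TMX and 14.3 FPKM in con, a log2 fold change of -0.58 (p = 0.0395, q = 0.188) in the authors' deposited table. Its paralog Derl2 was at 15.7 FPKM in TMX and 20.7 FPKM in con (q = 0.661) in the authors' deposited table. Derl3 was the least abundant member, at 1.15 FPKM in TMX and 0.529 FPKM in con, a log2 fold change of 0.49 (q = 0.464) in the authors' deposited table. Its plain ratio was 2.17, which the pseudocount of 1 reduces on the log2 scale.

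Os9, a lectin that delivers substrates to the SEL1L and HRD1 ligase complex, was at 15.9 FPKM in TMX and 24.01 FPKM in con, a log2 fold change of -0.57 (p = 0.0513, q = 0.223) in the authors' deposited table. Sel1l, the adaptor of that complex, was at 33.5 FPKM in TMX and 45.0 FPKM in con (q = 0.660) in the authors' deposited table. Syvn1, which encodes the ligase HRD1 itself, was at 8.61 FPKM in TMX and 7.24 FPKM in con (q = 0.870) in the authors' deposited table. Herpud1, a membrane factor of the same complex and a usual UPR target, was at 76.3 FPKM in TMX and 81.1 FPKM in con (q = 0.948) in the authors' deposited table. Vcp, the ATPase that pulls substrates into the cytosol, was at 37.5 FPKM in TMX and 28.2 FPKM in con, a log2 fold change of 0.40 (q = 0.671) in the authors' deposited table. Within the ligase complex, the lectin, the adaptor and Herpud1 thus had lower and the ligase higher values in TMX as deposited, each without a call. Scaling to the same total put Herpud1 at a log2 fold change of 0.13, while Os9 and Sel1l stayed below 0 and Syvn1 above it. The loci given for Syvn1 and Herpud1 are wider than the genes, and that of Syvn1 overlaps 1 further protein-coding gene. Their values are therefore less certain.

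The ERAD class had a median log2 fold change of -0.42 by the authors' deposited table, with 8 of 11 genes below 0, and the median was -0.21 when the conditions were scaled to the same total. Its summed level was 288 FPKM in TMX and 361 FPKM in con, a ratio of 0.799, and 0.855 without Edem1, its most abundant gene. Tested protein-coding genes together had a ratio of 0.772. The medians of the classes were -0.42 for ERAD, -0.25 for chaperones, 0.04 for sensors and 0.03 for translocation genes in the authors' deposited table, and centring on all tested genes put the last of these at -0.03. That order was described only, since a table with 1 value per condition allows no test between classes, and the ranges of the classes overlapped.

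The translocation genes encode parts of the channel, and their summed level was 277 FPKM in TMX and 286 FPKM in con, a ratio of 0.969, or 1.16 without Sec61b. Sec61b was left out as the gene of highest mean level, and it is also the only gene of the class with a lower value in TMX. All tested genes together had a ratio of 0.859. Sec61a1, the pore-forming subunit, was at 71.3 FPKM in TMX and 69.9 FPKM in con (q = 0.985) in the authors' deposited table. Sec61b, a small subunit of the same channel, was at 88.9 FPKM in TMX and 124 FPKM in con (q = 0.371) in the authors' deposited table. Ssr1, a subunit of the associated TRAP complex, was at 117 FPKM in TMX and 91.7 FPKM in con (q = 0.851) in the authors' deposited table.

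Apart from the targets of PERK and the integrated stress response, given further below, other genes of the same pathways were mostly uncalled. Their counts stand beside the 6.6% called higher and 5.7% called lower among all tested genes. Of 31 other tested ERAD factors, none was called higher and 3 lower by the authors' deposited table. Rnf5, an ER-membrane ubiquitin ligase, fell to 4.22 FPKM in TMX, against 15.2 FPKM in con, a log2 fold change of -1.63 (q = 0.00112) in the authors' deposited table. Erlin1, part of a complex that leads inositol trisphosphate receptors to degradation, fell to 9.30 FPKM in TMX, against 24.1 FPKM in con (q = 0.00112) in the authors' deposited table. March6, another ER-membrane ligase, fell to 10.04 FPKM in TMX, against 24.5 FPKM in con (q = 0.00112) in the authors' deposited table. Over the list the median log2 fold change was -0.16.

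Of 30 tested genes of COPII transport and cargo receptors, none was called higher and 4 lower by the authors' deposited table, with a median log2 fold change of -0.38. Kdelr1, a receptor that returns escaped chaperones to the ER, fell to 9.35 FPKM in TMX, against 25.9 FPKM in con, a log2 fold change of -1.38 (q = 0.00676) in the authors' deposited table. The paralogs were not called, with Kdelr2 at 37.98 FPKM in TMX and 63.9 FPKM in con (q = 0.0924), and Kdelr3 at 5.53 FPKM in TMX and 6.42 FPKM in con (q = 0.976), in the authors' deposited table. The cargo receptor genes Tmed3 and Ergic3 fell, with log2 fold changes of -1.28 and -1.21, as did Tfg, which organises ER exit sites, with -1.03, in the authors' deposited table. Of 33 other tested translocation and glycosylation genes, none was called, and 7 were lower and none higher at an unadjusted p-value under 0.05 in the authors' deposited table. At that threshold, 10.7% of all tested genes were lower and 12.1% higher. The COPII list had 11 lower and none higher, and the other ERAD factors 3 lower and none higher. Other folding enzymes and chaperones had 6 lower and 4 higher.

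Of 36 other tested folding enzymes and chaperones, 2 were called as higher and 1 as lower by the authors' deposited table. Fkbp2, an ER prolyl isomerase, fell to 17.2 FPKM in TMX, against 42.8 FPKM in con (q = 0.00792) in the authors' deposited table. The collagen chaperone gene Fkbp10 rose to 1.87 FPKM in TMX, against 0.0599 FPKM in con (q = 0.0475), and Uggt2, a glycoprotein folding sensor, to 1.48 FPKM in TMX, against 0.303 FPKM in con (q = 0.0282), in the authors' deposited table. Markers of stroma, muscle and endothelium, led by Dcn, Col3a1 and Vim, stood beside this with 7 of 13 tested called higher, none lower, and summed levels of 206 FPKM in TMX and 20.2 FPKM in con in the authors' deposited table, Cldn5 being listed at 0 in con. The part of those cells in the Fkbp10 value was not tested.

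Of 11 tested ER-anchored transcription factors and their proteases, 2 fell and 0 were called higher, by the authors' deposited table. Creb3l4 fell to 2.74 FPKM in TMX, against 8.35 FPKM in con (q = 0.0150), and Creb3l2 to 1.55 FPKM in TMX, against 3.58 FPKM in con (q = 0.0121), in the authors' deposited table. Mbtps1 and Mbtps2, which encode the proteases that cleave ATF6, were at 19.0 and 6.98 FPKM in TMX and at 20.9 and 4.55 FPKM in con, neither called, in the authors' deposited table. Of 14 tested ER-phagy and ER-shape genes, Reep6 was the 1 call, falling to 3.60 FPKM in TMX, against 10.5 FPKM in con in the authors' deposited table.

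Genes of IRE1-dependent mRNA decay and signalling went both ways, with 1 of 14 tested called higher and 3 lower by the authors' deposited table. Bloc1s1, the best known mRNA that IRE1 cuts and so destines for decay, fell to 13.7 FPKM in TMX, against 35.4 FPKM in con (q = 0.0198) in the authors' deposited table. Tmbim6, an ER membrane protein that can restrain IRE1, fell to 59.4 FPKM in TMX, against 178 FPKM in con (q = 0.00112) in the authors' deposited table. Pmp22 fell to 39.3 FPKM in TMX, against 267 FPKM in con (q = 0.00112), and Sparc, a matrix protein gene, rose to 17.4 FPKM in TMX, against 0.823 FPKM in con (q = 0.00112) in the authors' deposited table. The part of the stromal markers given above in the value of Sparc was not tested.

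**Figure D4:**
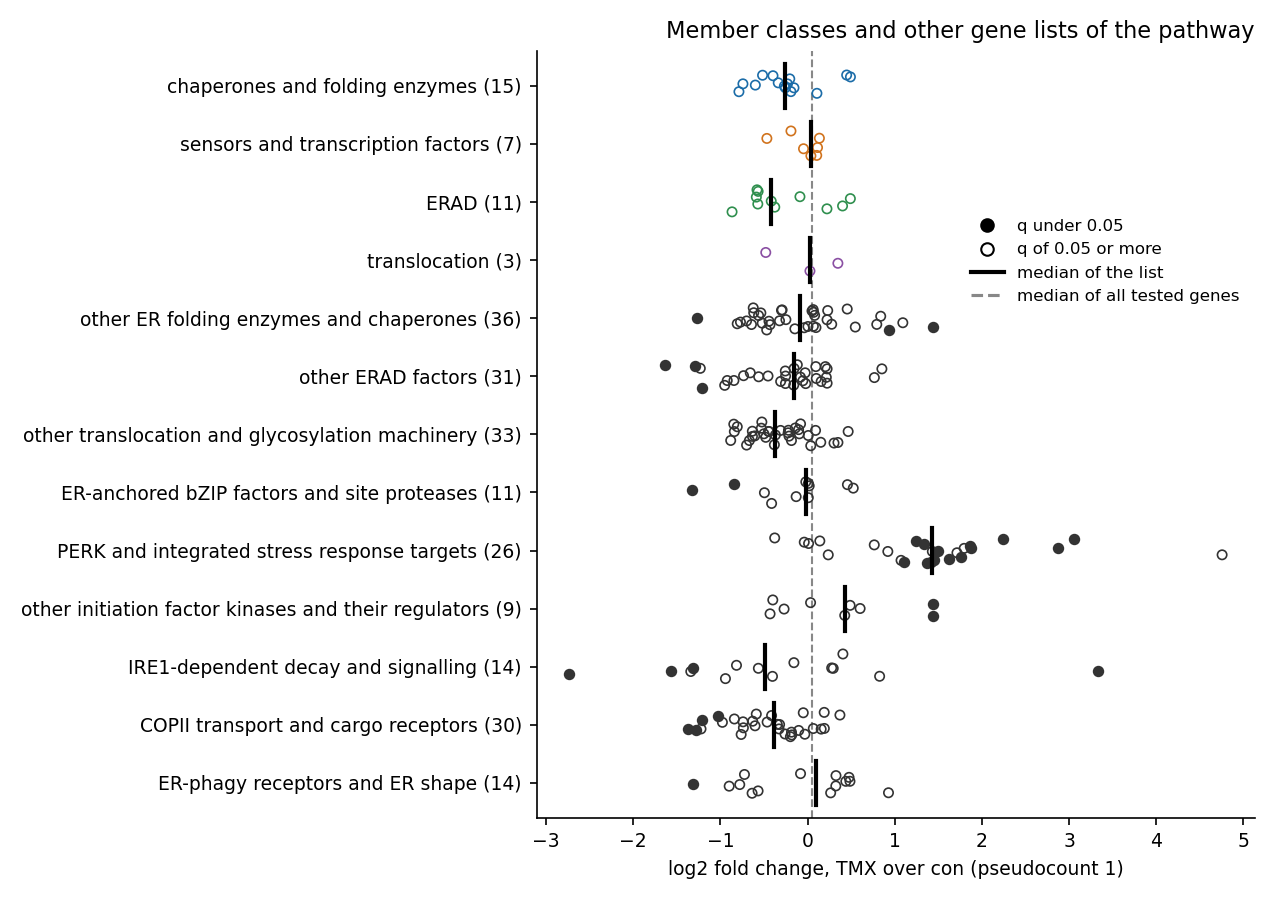
Log2 fold change of TMX over con (pseudocount 1) for each tested gene of the member classes and of the other pathway lists, filled where the authors called it, with the number tested in parentheses, bars at list medians and a dashed line at the median of all tested genes. The member classes hold no filled point, while the list of PERK and integrated stress response targets has a median of 1.43, and its point farthest right is a Ddit3 entry that is listed at 0 in con.

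PERK also starts the integrated stress response, whose targets were listed separately from the members. Of its 26 tested entries, which cover 25 genes because Ddit3 has 2 overlapping identifiers, 14 were called higher and none lower by the authors' deposited table, with a median log2 fold change of 1.43. Among all tested genes, 6.6% were called higher and 5.7% lower. Trib3, a pseudokinase gene induced by ATF4 and CHOP, rose to 7.59 FPKM in TMX, against 2.41 FPKM in con (q = 0.0260) in the authors' deposited table. The CHOP gene Ddit3 was at 40.7 FPKM in TMX and 18.8 FPKM in con under its main identifier (q = 0.290), and its overlapping entry was at 26.03 FPKM in TMX and listed at 0 in con, in the authors' deposited table. Ppp1r15a, which encodes the phosphatase subunit that ends the response, was at 8.89 FPKM in TMX and 2.02 FPKM in con, a log2 fold change of 1.71 (q = 0.385) in the authors' deposited table. Atf4 was at 83.2 FPKM in TMX and 82.5 FPKM in con (q = 0.991) in the authors' deposited table.

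By the rule for named genes, the largest called changes of that list were Slc7a11, Chac1, Phgdh, Vldlr, Atf3 and Psat1, with log2 fold changes of 3.05, 2.87, 2.24, 1.87, 1.86 and 1.77 in the authors' deposited table. PERK is 1 of the kinases that start this response. Eif2ak2, which encodes the double-stranded RNA sensor PKR, rose to 70.2 FPKM in TMX, against 25.2 FPKM in con (q = 0.00112) in the authors' deposited table. Gcn1l1, which encodes the activator of GCN2, rose to 20.04 FPKM in TMX, against 6.76 FPKM in con (q = 0.0491) in the authors' deposited table. Eif2ak1 was at 6.21 FPKM in TMX and 8.71 FPKM in con, and Eif2ak4, the GCN2 gene, at 6.41 FPKM in TMX and 4.28 FPKM in con, neither called, in the authors' deposited table. An mRNA level does not read the activity of a kinase, and the part of any kinase in the values of the targets was not tested.

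Markers of the cell types in the crypt were read beside the member values. The epithelial markers Epcam, Krt19 and Krt8 were at 372, 464 and 295 FPKM in TMX and at 869, 524 and 456 FPKM in con in the authors' deposited table, and the 10 epithelial markers summed to 2016 FPKM in TMX and 3276 FPKM in con with none at 0. Of these 10, Krt18 was called higher, at 162 FPKM in TMX and 68.0 FPKM in con (q = 0.00281), and none lower, by the authors' deposited table. Goblet cell markers, led by Agr2, Spink4 and Zg16, summed to 10645 FPKM in TMX and 21094 FPKM in con, with 4 of 14 tested called lower and none higher, in the authors' deposited table. Values were lower in TMX for 13 of the 14, and Agr2, Spink4 and Zg16 were not called. Muc2 was nearly level, at 252 FPKM in TMX and 262 FPKM in con (q = 0.975), as was Spdef, at 9.94 and 10.2 FPKM, in the authors' deposited table. Ccl9 was higher without a call, at 261 FPKM in TMX and 98.4 FPKM in con, in the authors' deposited table. Paneth cell markers, led by Defa24, Defa30 and Defa22, summed to 23594 FPKM in TMX and 35833 FPKM in con, with 3 of 13 tested called lower and 1 higher, in the authors' deposited table. Values were lower in TMX for 11 of the 13, and Defa24, Defa30 and Defa22 were not called. The marker called higher was Nupr1, which is also on the list of integrated stress response targets, at 119 FPKM in TMX and 43.2 FPKM in con (q = 0.00355) in the authors' deposited table. Absorptive enterocyte markers, led by Fabp2, Fabp6 and Sis, summed to 7318 FPKM in TMX and 24277 FPKM in con, with 7 of 16 tested called lower and none higher, by the authors' deposited table. Crypt base stem cell markers, led by Olfm4, Slc12a2 and Axin2, summed to 101 FPKM in TMX and 403 FPKM in con, with 2 of 10 called lower and none higher, by the authors' deposited table. Without Olfm4, at 18.2 FPKM in TMX and 277 FPKM in con, the stem cell markers summed to 82.3 FPKM in TMX and 126 FPKM in con, a ratio of 0.654 in place of 0.250. No marker of these lists was listed at 0, and their part in the member values was not tested.

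Plasma cells, which secrete antibody and are rich in ER, also express ER chaperone genes. Plasma and B cell markers, led by Igkc, Sdc1 and Igha, summed to 250 FPKM in TMX and 164 FPKM in con, with 1 of 13 tested called higher, Igkc, and none lower, in the authors' deposited table. Jchain, which encodes the joining chain of secreted antibody, was at 18.0 FPKM in TMX and 10.8 FPKM in con (q = 0.171) in the authors' deposited table. Enteroendocrine markers, led by Nts, Gcg and Chgb, summed to 457 FPKM in TMX and 208 FPKM in con, with 5 of 12 tested called higher and none lower, by the authors' deposited table. Myeloid markers, led by Lyz2, S100a8 and S100a9, summed to 446 FPKM in TMX and 33.6 FPKM in con, with 10 of 16 called higher, none lower and Ly6g listed at 0 in con, by the authors' deposited table. T and NK cell markers, led by Gzma, Gzmb and Klrd1, summed to 63.3 FPKM in TMX and 357 FPKM in con, with 6 of 16 called lower and none higher, by the authors' deposited table. The part of these cells in the member values was likewise not tested.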

How the data were processed

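The submitters' processing notes name STAR, Cufflinks and GRCm38 and give no version or parameter. The authors' table holds, per the file headers, FPKM for TMX and for con (1 pooled value each), their test's p-value, q-value and status, and a test statistic, a score not used here. Recomputed from the FPKM, the deposited log2 fold change is that of TMX plus 1 over con plus 1, and a Benjamini-Hochberg adjustment across the 15762 genes of status OK gave back the authors' q-value. Another 39624 genes had no test, and 60 had the status HIDATA and were left out. Since no value per library was used, no new test was run: calls are the authors', and lists are described by counts and medians. Members and lists were chosen with earlier results of these data known. The 9 further pathway lists and 10 marker lists came from textbook knowledge. Of each pathway list the text names the called genes (at most 6, by size) and 4 factors downstream of PERK, and of each marker list the 3 genes of highest mean FPKM and any listed at 0. Dnajc1, Dnajc10, Erp44, Tmx3, Krt18, Kdelr2, Kdelr3, Mbtps1, Mbtps2, Eif2ak1, Eif2ak4 and Jchain were named after their values were seen. So were the markers Muc2, Spdef, Ccl9, Nupr1, Acta2, Myh11, Tagln and Des. Symbols turned into dates (27) were restored by identifier. One Paneth marker, Gm15284, was not matched.

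Gene coordinates are from GENCODE vM21 (GRCm38). In the table, the locus of 10 members covered more than the annotated gene, which makes these FPKM less certain: Hsp90b1, Dnajb9, Dnajb11, Manf, Pdia3, Pdia6, Herpud1, Syvn1, Derl2 and Vcp. The labels do not say whether counting used strand or how reads of overlapping genes were divided. Promoter sequences are RefSeq's (GRCm38.p6), and the gene starts behind them can differ from those of GENCODE, as for Hspa5. The adjustment and the motif search were tested on simulated data. Tools were matplotlib 3.10.9, numpy 2.4.6 and pandas 2.3.3 under Python 3.11.15.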

Additional observations from a re-analysis of the deposited data

How the results depend on the processing

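No paired analysis was possible because the table holds 1 pooled value per condition; for the same reason no library could be left out, and depth is unknown. Called members numbered 0 at a q-value under 0.05 or 0.01 and after adjustment over genes averaging 1 FPKM or more, over protein-coding genes or over all listed genes, 1 (lower) at a q-value under 0.1 and 3 (all lower) at an unadjusted p-value under 0.05. Of all tested genes, 7.43% were lower at a q-value under 0.1 and 10.7% at an unadjusted p-value under 0.05. The medians, with no replicate spread to judge them by, moved as follows. Scaling to the same total gave -0.0055 for all members, -0.048 for chaperones, 0.19 for sensors, -0.21 for ERAD and 0.24 for translocation genes. With the HIDATA genes in that total, an alternative chosen after seeing the data, these were 0.0074, -0.035, 0.20, -0.19 and 0.25. Centring on all tested genes gave -0.27, -0.31, -0.016, -0.47 and -0.027. A pseudocount of 0.1 gave -0.26 for chaperones, 0.054 for sensors and -0.43 for ERAD. A mean FPKM of at least 10 gave -0.25 for all members, 0.029 for sensors and -0.57 for ERAD. Members whose locus is the annotated gene, also chosen after seeing the data, gave -0.26 for all, -0.34 for chaperones and -0.57 for ERAD. Scaled to the same total, the summed level in TMX over that in con was 0.935 for all members, 0.910 for chaperones, 1.09 for sensors, 0.928 for ERAD and 1.13 for translocation genes. That total also counts genes that are not protein-coding.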

Other observations

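Outside the members, 8 tested genes had an exact ERSE in their promoter window, and 3 of them were called higher and none lower in the authors' deposited table. These 8 were chosen for their sequence and named after their values were seen. Zfp57, a zinc finger gene, rose to 4.96 FPKM in TMX, against 0.464 FPKM in con, a log2 fold change of 2.02 (q = 0.00112) in the authors' deposited table. Spats2l rose to 59.0 FPKM in TMX, against 24.2 FPKM in con (q = 0.0105), and Acacb, an acetyl-CoA carboxylase gene, to 1.19 FPKM in TMX, against 0.312 FPKM in con (q = 0.0437), in the authors' deposited table. The other 5, Alg12, Pan2, Xlr3a, Xlr3b and Hnrnpa3, had log2 fold changes between -0.07 and 0.70 and were not called in the authors' deposited table. Of 7 tested genes outside the members with an ERSE-II, 0 were called higher and 1 lower. Of 101 with the XBP1 element core, 5 were called higher and 3 lower. Over all tested genes 6.6% were called higher and 5.7% lower, and a match of letters does not show that a factor binds.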
